A study of Mus musculus with 8 samples.

Results

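The 33 loci described here belong to genes that write, erase and read histone acetylation, that build the BAF chromatin remodelling complex, or that build Mediator. They were taken by name, with earlier results of these data known. Each locus is the RefSeq gene interval with 50 kb on each side on the mm10 mouse build. They are 33 of 21883 protein-coding gene windows. By role they comprise 9 acetyltransferases, 8 deacetylases, 2 BET readers, 5 BAF subunits, 5 Mediator subunits and 4 subunits of the Mediator kinase module.

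Acetyltransferases such as EP300 and CREBBP place acetyl groups on histone tails, and deacetylases remove them. One such site is H3 lysine 27 (H3K27ac), whose acetylation accompanies active enhancers and promoters. BET proteins bind acetylated histones through bromodomains, BAF moves nucleosomes with the ATPase SMARCA4, and Mediator connects enhancer-bound factors to RNA polymerase II. These machines help to keep the enhancers of embryonic stem cells active, so the windows show the mark at the genes of its own machinery.

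H3K27ac peaks came from ChIP-seq of mouse embryonic stem cells, line E14tg2a, of strain background 129SV. All groups carried a stable cRAF-ErT2 cassette, in which an oestrogen receptor domain joined to RAF lets 4-hydroxytamoxifen (4OHT) start ERK signalling. All cells grew in medium that held serum, LIF and the GSK3 inhibitor Chir99021 at 2 uM, and 24 h before treatment were moved to serum with LIF and 250 nM PD173074, an FGF receptor inhibitor. The untreated group received no 4OHT and the treated group received 250 nM 4OHT for 2 h, and each group holds 1 library of clone a and 1 of clone b. The labels name no vehicle control and no cells without the cassette, and ERK activity was not measured in these data. The comparison addresses how ERK activation alters enhancers, and each clone is a single line under both treatments.

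The 4 libraries held between 59170 and 63276 peaks, which covered between 50.4 and 53.1 Mb, and the number of reads behind them is unknown. Embryonic stem cell markers carried the mark in all libraries. The windows of all 8 (Pou5f1, Sox2, Nanog, Esrrb, Zfp42, Tdgf1, Dppa5a and Utf1) summed to between 195 and 221.3 kb of covered length per library. The windows of 8 fibroblast markers summed to 7.52 and 8.71 kb untreated (clone a, clone b) and to 11.4 and 14.1 kb treated, and 2 of them (Prrx1 and Postn) had no covered base in any library. The 5 markers of differentiated tissue summed to 8.47 and 12.1 kb untreated and to 13.1 and 17.1 kb treated, and Alb had no covered base. The part of these other cell types in the results was not tested. In bulk chromatin, a mark in fewer cells and less of the mark per cell cannot be told apart.

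Most of these genes carried a peak at their start in every library. RefSeq promoter entries (assembly GRCm38.p6, from 250 bases before to 50 bases after a start) matched 28 of the 33 genes. At 26 of the 28, or 92.9%, a peak overlapped a promoter in all 4 libraries, against 38.2% of 17491 protein-coding genes with an entry. The exceptions were Hdac7 and Med12. At Med12, a kinase module subunit encoded on the X chromosome, a peak lay on the promoter in 3 libraries, of 816 bp in untreated clone a, 1104 bp in treated clone a and 221 bp in treated clone b.

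The 250 bases before the start are printed for 4 members, and the capitals mark CpG dinucleotides, in which CpG island promoters are rich. The windows of Hdac5 and Smarca4 rose in the test without a clone term given below. Those of Crebbp and Smarcd1 did not, but held regions called in both treated and neither untreated library. These 4 were chosen among the members that qualified after their values had been seen.
Crebbp, chr16:4213405-4213654, minus strand: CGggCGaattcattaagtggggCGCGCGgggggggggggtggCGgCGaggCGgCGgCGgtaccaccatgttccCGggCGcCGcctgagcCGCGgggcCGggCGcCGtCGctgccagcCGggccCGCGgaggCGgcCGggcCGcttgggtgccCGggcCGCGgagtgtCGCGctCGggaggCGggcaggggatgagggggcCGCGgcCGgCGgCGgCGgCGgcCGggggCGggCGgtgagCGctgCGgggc
Hdac5, chr11:102230173-102230422, minus strand: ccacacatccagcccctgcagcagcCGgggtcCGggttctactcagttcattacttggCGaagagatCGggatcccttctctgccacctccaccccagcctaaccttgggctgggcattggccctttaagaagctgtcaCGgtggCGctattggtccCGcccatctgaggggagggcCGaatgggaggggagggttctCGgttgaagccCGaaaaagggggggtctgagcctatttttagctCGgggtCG
Smarca4, chr9:21615919-21616168, plus strand: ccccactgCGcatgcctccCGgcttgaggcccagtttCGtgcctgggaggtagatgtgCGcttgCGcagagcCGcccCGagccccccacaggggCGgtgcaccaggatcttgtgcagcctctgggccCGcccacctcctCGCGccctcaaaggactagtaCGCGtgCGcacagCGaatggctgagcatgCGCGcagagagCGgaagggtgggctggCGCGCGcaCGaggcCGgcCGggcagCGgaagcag
Smarcd1, chr15:99702037-99702286, plus strand: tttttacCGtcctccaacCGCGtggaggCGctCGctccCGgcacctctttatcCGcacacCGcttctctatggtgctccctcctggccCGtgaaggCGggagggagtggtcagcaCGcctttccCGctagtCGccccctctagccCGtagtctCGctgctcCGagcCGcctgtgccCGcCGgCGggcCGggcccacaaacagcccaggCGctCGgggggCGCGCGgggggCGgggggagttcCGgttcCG
The stretch held 44 CpG at Crebbp, 29 at Smarcd1, 25 at Smarca4 and 12 at Hdac5. Over the 38 promoter entries of the members the median ratio of observed to chance CpG was 0.844, against 0.567 over 21262 entries, so these starts were the more CpG-rich. Of short motifs searched on both strands, CCGGAAG (the ETS core) occurred in 15.8% of the members' entries and 11.6% of all, CCAAT (NF-Y) in 26.3% and 38.2%, TATAAA in 2.63% and 12.6%, and TGACTCA (AP-1) in 10.5% and 4.66%. TGACGTCA (CRE) was in none of the members' entries and in 2.23% of all. These are matches of letters within the entries, and CCGGAAG and TATAAA were in none of the 4 stretches printed.

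Covered length, the number of bases under peaks in a window, was compared between treatments with limma on log2(covered bp + 500). The p-values were adjusted by Benjamini-Hochberg over the 16045 windows with a mean of at least 1000 bp, at a threshold of 0.05, and all 33 members were among them. Covered length rose at 2 of the 33 loci, Smarca4 and Hdac5, and fell at none, and 8 were higher (17.0% of all windows) and 1 was lower (10.8% of all windows) at an unadjusted p under 0.05. Over all windows 4.00% rose and 2.87% fell. With the clone as a second term, which removes the steady difference between clones a and b, 12 of the 33 rose (22.7% of all windows) and 3 fell (15.5% of all windows). The 3 were Hdac2, Brd3 and Med26. The share that rose with the clone term was therefore higher among the members, at 12 of 33, and the share that fell was lower. The list was drawn up with earlier results of these data known. These shares, and those that follow, therefore only describe the list.

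The median log2 change of the 33 loci was 0.24, against 0.08 over all windows. Both treated libraries lay above both untreated ones at 16 members (37.1% of all windows) and below at 3 (21.7% of all windows), and at the other 14 the groups overlapped. The sign of the change was the same in clones a and b at 30 members (80.8% of all windows). Of the members, 24 were higher and 6 lower in both clones, against 7849 and 5119 of the 16045 windows. The typical size of a change was not larger than elsewhere: the median absolute log2 change was 0.257 in the members and 0.255 over all windows. Windows of neighbouring genes share peaks, so they are not independent of each other.

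**Figure D1:**
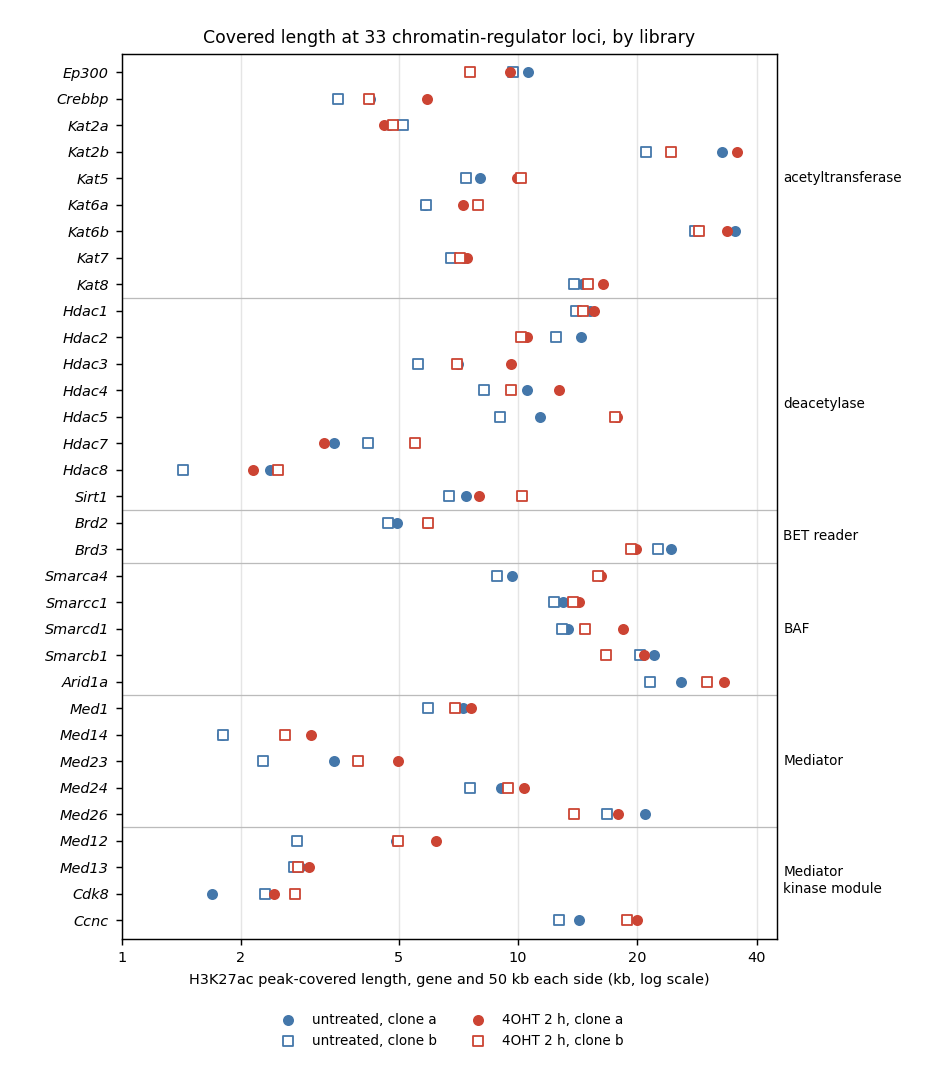
Covered length in each window (kb, log scale) for the 33 loci, grouped by role: blue untreated, red 4OHT for 2 h, filled circles clone a, open squares clone b, each point 1 library. At Smarca4 and Hdac5 both red points lie well to the right of both blue points, while at Kat2b and Kat6b the squares lie to the left of the circles in both treatments.

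Among the acetyltransferases, none passed the test without the clone term. The windows of the 2 coactivator genes Ep300 and Crebbp had log2 changes of opposite sign. Neither passed with the clone term (adjusted p = 0.080 and 0.077). Ep300, whose product acetylates H3 at lysine 27, had 10613 bp (clone a) and 9729 bp (clone b) covered when untreated and 9551 and 7551 bp after 4OHT (log2 change -0.25 ± 0.15 SE, adjusted p = 0.361). Crebbp, its close relative, had 4241 and 3517 bp untreated and 5883 and 4196 bp treated (log2 change 0.33 ± 0.20 SE, adjusted p = 0.353). The treated libraries of Ep300 both lay below the untreated ones, while those of Crebbp overlapped them because treated clone b lay under untreated clone a. The Crebbp gain included 2 regions within the gene, chr16:4153327-4153701 and chr16:4154044-4154436, called in both treated and neither untreated library.

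Kat5, the catalytic subunit of the NuA4 complex, had 8007 and 7386 bp untreated and 9944 and 10187 bp treated. Kat6a, a MYST acetyltransferase that works with BRPF proteins, had 5835 and 5852 bp untreated and 7284 and 7906 bp treated. Neither gene's groups overlapped, and both rose only once the clone term was fitted (adjusted p = 0.019 and 0.033, against 0.127 and 0.149 without it). Kat8, which acetylates H4 at lysine 16, had 14493 and 13819 bp untreated and 16430 and 15038 bp treated and passed neither test.

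Kat2b differed far more between clones than between treatments. This gene, also known as PCAF, had 32642 and 35648 bp in clone a (untreated, treated) and 21020 and 24343 bp in clone b. Clone b was lower by 0.58 on the log2 scale (SE 0.05, adjusted p = 0.001 for the clone term), whereas the treatment change was 0.17 (adjusted p = 0.024 with the clone term and 0.733 without). Kat6b, a MYST acetyltransferase like Kat6a, showed the same order of clones, with 35246 and 33598 bp in clone a and 27933 and 28581 bp in clone b, and almost no treatment change (-0.02). The 2 remaining acetyltransferases were among the flattest loci: Kat2a, of the SAGA complex, had 4722, 5112, 4588 and 4827 bp, and Kat7 had 7320, 6790, 7447 and 7156 bp (untreated a and b, then treated a and b).

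Of the deacetylases, Hdac5 rose. This class IIa deacetylase gene (chr11:102195747-102230172) had 11374 bp (untreated clone a) and 9009 bp (untreated clone b) covered in its window and 17799 and 17523 bp after 4OHT. Both treated libraries lay above both untreated ones by more than the spread within either group, and the window mean was 1.73-fold higher (10.2 ± 1.67 kb untreated, 17.7 ± 0.195 kb treated, SD, n = 2 each). The log2 change was 0.77 (SE 0.15, adjusted p = 0.044), or 0.62 in clone a and 0.92 in clone b. The call ended when any 1 library was left out (adjusted p between 0.082 and 0.139), in windows of 10 and 100 kb (0.067 and 0.082), with no length filter (0.055), with lists of equal length (0.051) and with the upper 50% of peaks by score (0.108).

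The class I deacetylases did not move together. Hdac2, a subunit of the NuRD and SIN3 complexes, had 14446 and 12498 bp untreated and 10527 and 10192 bp treated, and fell with the clone term (log2 change -0.36, adjusted p = 0.012, against 0.144 without it). Its close relative Hdac1 had 15162, 14044, 15586 and 14582 bp and a log2 change of 0.05. Hdac3, the catalytic subunit of the NCoR and SMRT corepressor complexes, had 7037 and 5595 bp untreated and 9577 and 7035 bp treated and rose with the clone term (0.36, adjusted p = 0.026, against 0.299 without). Hdac8 carried one of the shortest covered lengths, with 2363, 1424, 2139 and 2480 bp, and its groups overlapped.

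Hdac4, class IIa like Hdac5, had 10553 and 8219 bp untreated and 12718 and 9607 bp treated, higher in each clone but with overlapping groups. Hdac7 had 3430 and 3248 bp in clone a and 4193 and 5512 bp in clone b, so the clones separated it and the treatments did not. Sirt1, a NAD-dependent deacetylase of a separate family, had 7378 and 6682 bp untreated and 7953 and 10251 bp treated, with no overlap and no passed test.

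The windows of the 2 BET reader genes had log2 changes of opposite sign. Brd2 had 4963 and 4706 bp untreated and 5893 and 5915 bp treated (log2 change 0.26, adjusted p = 0.251, and 0.103 with the clone term). Brd3 had 24366 and 22497 bp untreated and 19834 and 19307 bp treated, and fell with the clone term (-0.25, adjusted p = 0.009, against 0.195 without). The groups of neither gene overlapped. At Brd3 the widest loss of covered length lay in the region chr2:27513665-27518224, which overlapped the neighbouring gene Wdr5. There, 4529 and 4416 bp were covered before and 2824 and 2002 bp after 4OHT.

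Of the 5 BAF subunit loci, Smarca4 rose without the clone term, and 4 had positive log2 changes, as did 59.7% of all windows. Smarca4, which encodes the BRG1 ATPase of BAF (chr9:21616106-21704230), had 9632 bp (untreated clone a) and 8867 bp (untreated clone b) covered and 16242 and 15879 bp after 4OHT. The clones lay close together and the treatments far apart, with a 1.74-fold higher mean (9.25 ± 0.541 kb untreated, 16.1 ± 0.257 kb treated, SD, n = 2 each). The log2 change was 0.77 (SE 0.11, adjusted p = 0.031), 0.72 in clone a and 0.81 in clone b. Leaving out any 1 library ended the call (adjusted p between 0.095 and 0.111).

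Arid1a, the DNA-binding subunit of canonical BAF, had 25784 and 21571 bp untreated and 33102 and 29976 bp treated. Its groups did not overlap, and it rose with the clone term (log2 change 0.41, adjusted p = 0.0008) but not without it (adjusted p = 0.118). Smarcd1, an accessory subunit, had 13369 and 12938 bp untreated and 18402 and 14729 bp treated and also rose with the clone term (0.31, adjusted p = 0.021, against 0.226 without). Among the core subunits, Smarcc1 had 12985, 12343, 14233 and 13801 bp and Smarcb1 had 22012, 20349, 20763 and 16662 bp (untreated a and b, then treated a and b), and neither passed either test.

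In the Mediator kinase module, which binds the core complex reversibly and carries CDK8 with its cyclin, all 4 loci had positive log2 changes (59.7% of all windows), with a median of 0.41, and none passed the test without the clone term. The cyclin gene Ccnc had 14252 and 12718 bp untreated and 19968 and 18853 bp treated, with no overlap (log2 change 0.51, SE 0.12, adjusted p = 0.064, and 0.001 with the clone term). Scaling each library to its total covered length brought Ccnc past the threshold (adjusted p = 0.043). Med12, which activates the kinase, had 4930 and 2767 bp untreated and 6225 and 4991 bp treated, and rose with the clone term (0.53, adjusted p = 0.023, against 0.277 without), although its treated clone b barely exceeded its untreated clone a. The kinase gene Cdk8 had 1687 and 2293 bp untreated and 2429 and 2742 bp treated, and Med13, which links the module to the core, was the flattest of the 4 with 2815, 2716, 2967 and 2779 bp.

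Of the other Mediator subunits, Med23 and Med14 rose with the clone term. Med23, a tail subunit known as a contact of the ERK-regulated factor ELK1, had 3436 and 2278 bp untreated and 4994 and 3942 bp treated (log2 change 0.58, adjusted p = 0.013 with the clone term and 0.178 without). Med14, the scaffold of the complex, had 1796 and 1797 bp untreated and 3008 and 2581 bp treated (0.52, adjusted p = 0.040 with and 0.136 without). Neither gene's groups overlapped, but both windows had under 5 kb covered, so a few peaks made up each value. Med26, which recruits elongation factors, went the other way, with 20959 and 16782 bp untreated and 17910 and 13877 bp treated (-0.24, adjusted p = 0.018 with and 0.428 without). Med1, the nuclear receptor contact, had 7270, 5925, 7618 and 6922 bp and Med24 had 9058, 7545, 10361 and 9441 bp, and neither passed either test.

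Against the difference between clones, the treatment change was the larger in size at 20 of the 33 loci (62.6% of all windows), a share near the background. The libraries of clone a covered 53.1 and 51.5 Mb in all (untreated, treated) and those of clone b 50.4 and 50.7 Mb, and scaled to these totals the treatment change was the larger at 26 loci (64.1% of all windows). The clone term was negative, lower in clone b, at 28 of the 33 members and at 55.8% of all windows, with a median of -0.12 against -0.04. It passed the test at 5 members, Kat2b, Kat6b, Hdac4, Arid1a and Med26, all lower in clone b (9.19% of all windows). None was higher in clone b (5.71% of all windows; 1 member at an unadjusted p under 0.05). Both libraries of clone a exceeded both of clone b at 11 members (20.4% of all windows) and the reverse held at 2, Hdac7 and Kat2a (13.1% of all windows). Of the 15 members that passed the treatment test with the clone term, Kat2b and Med26 had a larger clone difference than treatment change. At Hdac3 both were 0.36 in size.

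**Figure D2:**
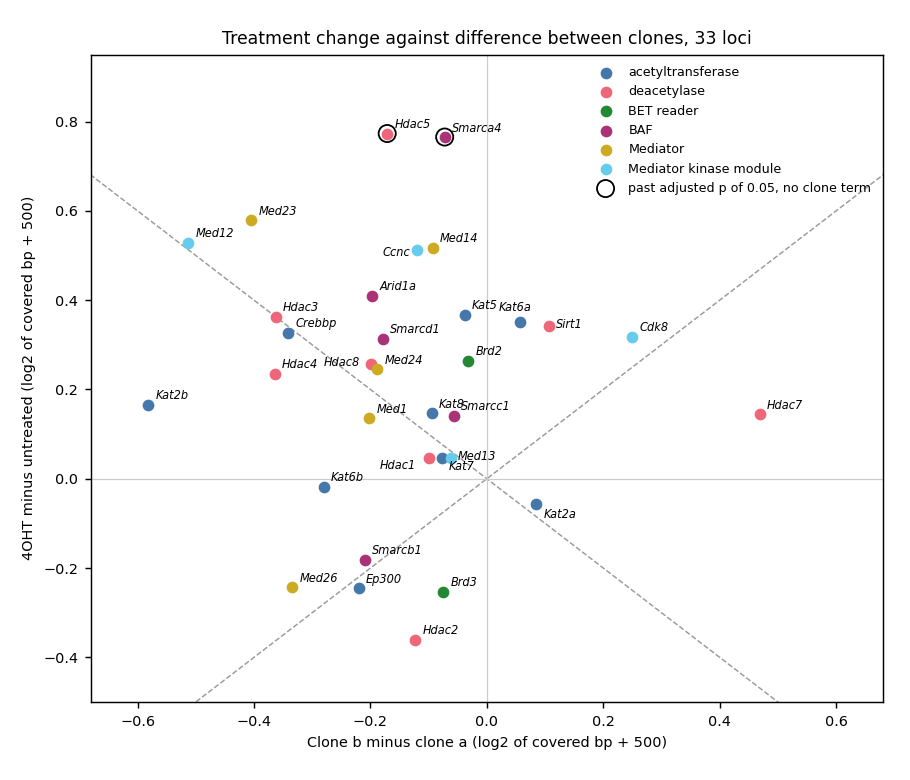
Treatment change (4OHT minus untreated, vertical) against clone difference (clone b minus clone a, horizontal), both as log2 of covered bp + 500, for the 33 loci coloured by role. Each point is 1 locus over 4 libraries, the dashed diagonals mark equal size, and circles mark Hdac5 and Smarca4, which lie at 0.77 on the vertical axis. Most points lie left of the vertical zero line, and Kat2b (-0.58) and Med12 (-0.51) lie farthest left.

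The position of the change within each window was then examined, since a window also holds other genes. The change summed over the 33 windows was 44071.5 bp (mean of treated minus mean of untreated libraries). Of this, 22.8% lay inside the 33 genes themselves, which made up 39.4% of the summed window length, 61.9% lay inside other protein-coding genes and 15.3% lay between genes. At 25 of the 33 loci the net change was larger in size outside the gene than inside it. Most of the window length lay outside the genes, and this count was not made over all windows. Within the gene itself, both treated libraries exceeded both untreated ones at 10 members (28.4% of the 16045 genes) and lay below at 2 (12.6%). The 16045 genes were filtered on their windows, and only 7215 of them had a mean of at least 1000 bp inside the gene, against 26 members. Genes without cover inside can fall in neither class, so these shares are not like for like.

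At Smarca4 the rise lay outside the gene. Inside the gene, 3376 and 2099 bp were covered untreated (clone a, clone b) and 2666 and 2051 bp after 4OHT, so the groups overlapped. With the gene interval alone the log2 change was -0.16 (adjusted p = 0.776), with 10 kb on each side it was -0.17, and with 100 kb on each side 0.02. The call for the Smarca4 window therefore depends on the window chosen. The Smarca4 promoter printed above kept its peaks, with 3017 and 2881 bp covered within 2 kb of the start untreated and 2934 and 2818 bp treated.

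At Hdac5 the rise was spread over the window. Of the 7469.5 bp gained, 17.6% lay inside Hdac5, 22.9% inside other genes and 59.5% between genes. Gained regions lay inside the gene at chr11:102200939-102201427 (470 and 478 bp in treated clones a and b) and chr11:102201870-102202490 (499 and 458 bp). Upstream, 13.7 kb from the gene, the gained region chr11:102243837-102244980 reached 802 and 1110 bp. Next to it, regions called in all 4 libraries widened, one from 277 and 280 bp to 1202 and 1309 bp and one reaching into Hrob from 2947 and 2023 bp to 4135 and 3776 bp. With the gene interval alone the log2 change of Hdac5 was 0.62 (adjusted p = 0.275), and with 10 kb on each side 1.03 (adjusted p = 0.067). At the promoter printed above, 1092 and 636 bp within 2 kb of the start were covered untreated and 1027 and 1152 bp treated, with overlap between the groups.

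The Ccnc window changed mostly by widening of regions that were already present, and the Arid1a window did so in part. Ccnc held 12 regions called in all 4 libraries and no gained region, and its 12 regions summed to 14252 and 12718 bp untreated and 19693 and 18146 bp treated. The region over its start, chr4:21725438-21728988, went from 2230 and 2049 bp to 3537 and 2810 bp. At Arid1a, regions called in all 4 libraries made up 4994.5 of the net 7861.5 bp, 2 gained regions 764 bp and the remaining regions, called in other combinations of libraries, 2103 bp. Regions in the neighbouring gene Pigv carried much of the change, among them chr4:133669147-133673696 with 2162 and 2012 bp untreated and 4304 and 3991 bp treated. Other genes held 61.5% of the net change in the Arid1a window and Arid1a itself 15.9%.

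**Figure D3:**
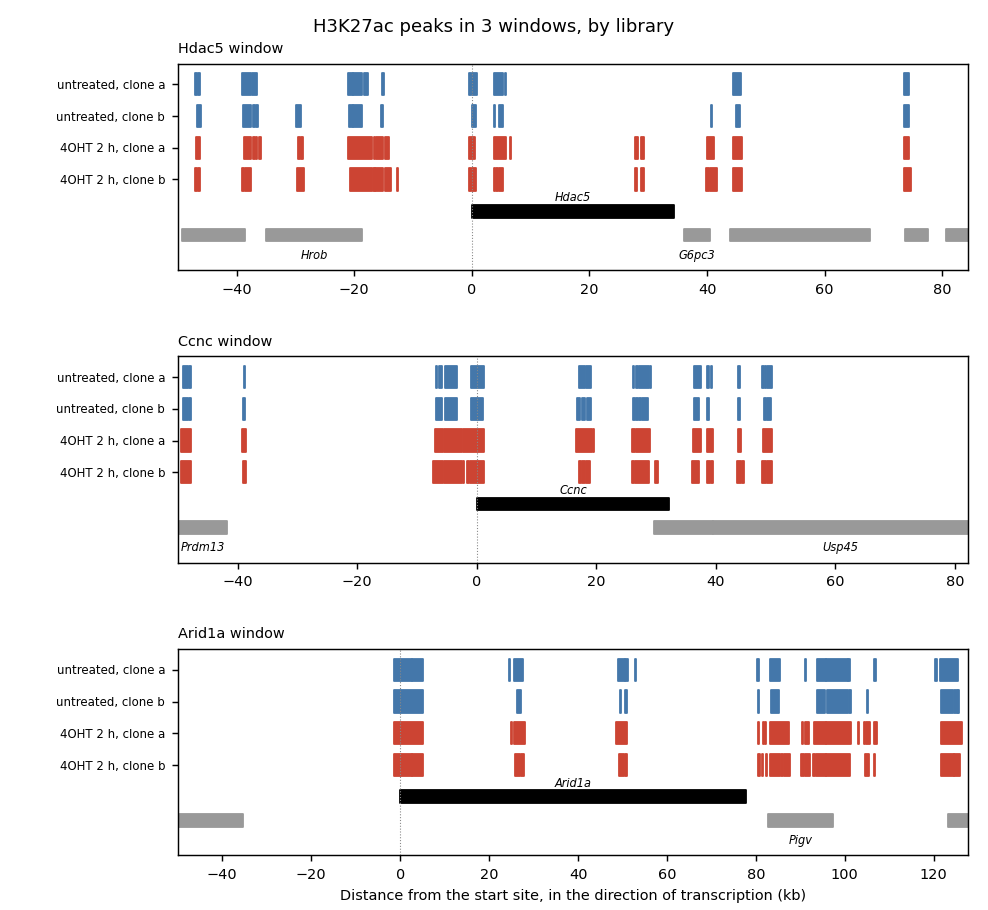
Peaks of each library (blue untreated, red 4OHT) in the windows of Hdac5, Ccnc and Arid1a, with distance from the start site in kb in the direction of transcription. Black bars are the named gene and grey bars other protein-coding genes, of which some are named. In the Hdac5 window red peaks toward the end of the gene have no blue counterpart, and in the Ccnc window red peaks mostly widen blue ones.

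Crebbp and Kat2b, among other members, differed from these in that most of their net change lay inside the gene. The Crebbp gene itself held 86.2% of the net change in its window, with 1381 and 638 bp covered untreated and 2757 and 1262 bp treated. The Kat2b gene held 75.6%, with 18297 and 8601 bp untreated and 20844 and 10837 bp treated, and its clones stayed further apart than its treatments. At Hdac2, by contrast, 96.1% of the net loss lay between genes, and the gene itself had 2792, 2095, 2300 and 2345 bp (untreated a and b, then treated a and b).

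**Figure D4:**
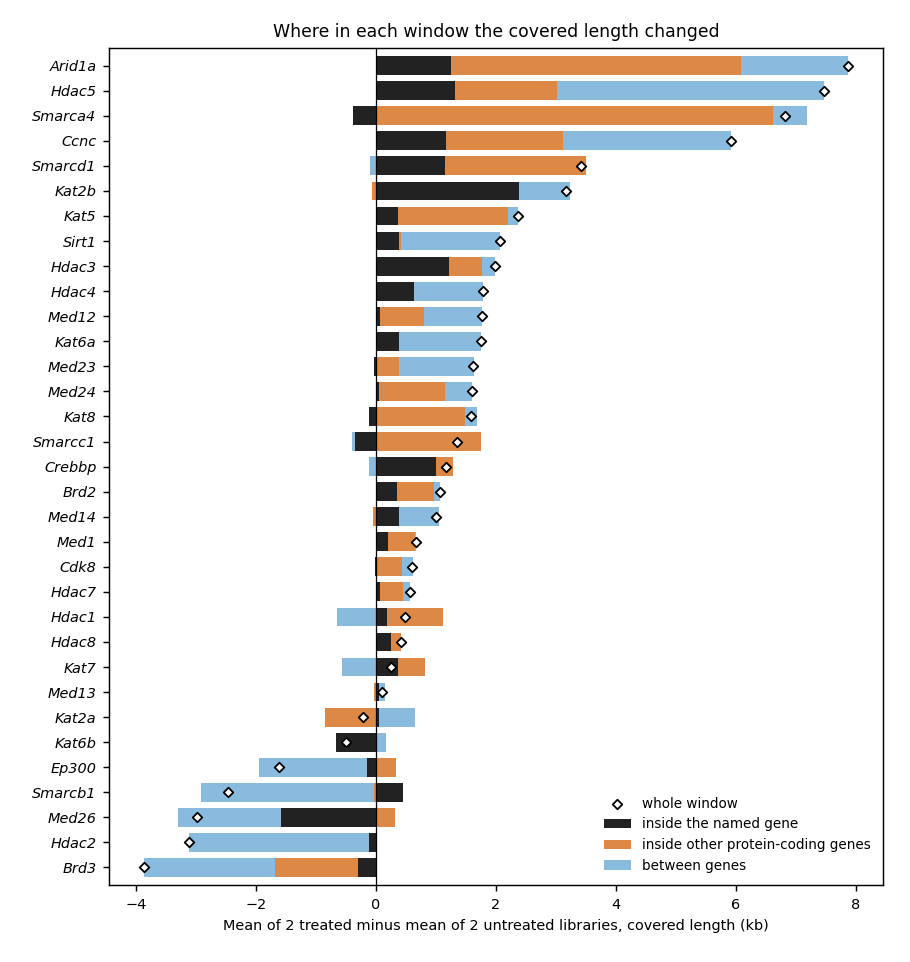
Net change in covered length (mean of 2 treated minus mean of 2 untreated libraries, kb) in each of the 33 windows, split into the named gene (black), other protein-coding genes (orange) and between genes (blue). Diamonds mark the whole window. Black is the smaller portion at most loci, with Kat2b and Crebbp among the exceptions.

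Peaks of the 4 libraries were merged into regions where they overlapped by at least 1 bp, and 439 regions touched the 33 windows. Of these, 43.1% were called in all 4 libraries, against 38.0% of the 70582 regions in protein-coding windows. Gained regions, called in both treated and neither untreated library, numbered 36 at 19 loci, or 8.20% against 6.20%. Lost regions, the reverse, numbered 8 at 7 loci, or 1.82% against 5.67%. Regions called only in both libraries of clone a made up 6.83% (3.43% in all windows) and only in clone b 2.51% (2.80%). The members thus held few lost regions and more regions seen only in clone a. Of the 30 seen only in clone a, 9 lay in the Kat2b window and 4 in that of Kat6b.

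Of the 36 gained regions, 8 overlapped a named gene (Crebbp, Kat7, Hdac4, Hdac5 and Smarcd1), 17 another gene only and 11 lay between genes. None lay on a promoter entry of a member, and 2 lay on promoters of neighbours, Lck beside Hdac1 and Vav2 beside Brd3. Of the members' 38 promoter entries, 33 had a peak in all 4 libraries, which left little room for a gained region there. None of the 8 lost regions overlapped a named gene. Gained regions were mostly short, with a median width of 518.5 bp. Each region was ranked in a library by its highest peak on the authors' score. The median percentiles were 40.6 and 46.4 for gained regions in the treated lists. They were 25.5 and 23.4 for lost regions in the untreated lists, and between 74.3 and 81.0 for regions called in all 4 libraries. Gained and lost regions thus ranked lower than shared ones, nearer the limit at which a peak is called. Part of this is built in, since a region with several peaks takes the highest and absence from a list selects weak peaks.

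Hdac3 held 5 gained regions, and Hdac1 and Hdac5 held 4 each. Those at Hdac3 and Hdac1 lay outside the named gene. Beside Hdac3, 4 of the 5 overlapped Arap3 and 1 overlapped Fchsd1, with between 217 and 766 bp covered in each treated library. The Hdac3 gene itself nevertheless held 61.4% of the net change in its window. Inside it, 1711 and 482 bp were covered untreated and 2472 and 2163 bp treated. Beside Hdac1, 2 gained regions overlapped Lck and 2 lay beyond it, with between 310 and 768 bp, while 1 region of 938 and 598 bp was lost. At Smarcd1 the gained region chr15:99712794-99714133 overlapped the end of the gene and reached past it, with 1340 and 653 bp in treated clones a and b.

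Around the start sites themselves, covered length within 2 kb on each side was compared at the 26 members with a promoter peak in all 4 libraries. Both treated libraries exceeded both untreated ones at 9 of the 26 (36.2% of 6681 genes) and lay below at none (9.65% of 6681 genes). The share that was higher was near the background, and no member showed the opposite pattern. At Smarcd1, 3151 and 3142 bp were covered untreated and 4001 and 3861 bp treated. At Crebbp the values were 734 and 1136 bp untreated and 1511 and 1463 bp treated, and at Med14 they were 939 and 839 bp untreated and 1423 and 1424 bp treated. The other 6 were Brd2, Ccnc, Kat2a, Kat2b, Kat8 and Smarcb1. Among them Smarcb1, whose whole window was lower after 4OHT, had 1007 and 1104 bp at its start untreated and 1553 and 1387 bp treated.

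Other genes of the same complexes, from a list of 84, gave 79 windows that could be tested. None of the 79 rose without the clone term (4.00% of all windows) and 2 fell (2.87% of all windows), Usp22 and Arid1b. At an unadjusted p under 0.05, 17 were higher and 7 lower (17.0% and 10.8% of all windows). With the clone term 21 rose (22.7% of all windows) and 9 fell (15.5% of all windows), and the median log2 change was 0.06, below the 0.24 of the members and near the 0.08 of all windows. Arid1b, the alternative to Arid1a in canonical BAF, had 17191 and 15882 bp untreated and 7723 and 8623 bp treated (log2 change -0.97, SE 0.12, adjusted p = 0.026).

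The Arid1b change lay mostly in the gene. Inside Arid1b, 13810 and 13473 bp were covered untreated and 6677 and 8047 bp treated, which was 75.1% of the net change, although the gene interval alone missed the threshold (adjusted p = 0.076). Thus the windows of the paralogues Arid1a and Arid1b had log2 changes of opposite sign, 0.41 and -0.97. The Arid1a window did not pass without the clone term (adjusted p = 0.118), and 61.5% of its net change lay in other genes. Inside Arid1a itself, 9650 and 6685 bp were covered untreated and 10463 and 8373 bp treated, so the groups overlapped. Usp22, the SAGA deubiquitinase, had 9524 and 7550 bp untreated and 3457 and 2834 bp treated (-1.31, SE 0.18, adjusted p = 0.027), but inside the gene 535 and 803 bp untreated and 901 and 678 bp treated. The Usp22 change therefore lay outside the gene, and with 10 kb on each side it was -0.58 (adjusted p = 0.093). Leaving out untreated clone a, treated clone a or treated clone b ended both calls (adjusted p between 0.069 and 0.084 for Usp22 and between 0.063 and 0.094 for Arid1b), as did taking the upper 50% of peaks by score (0.070 and 0.051).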

How the data were processed

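Peaks of 4 H3K27ac libraries, clones a and b untreated and after 4OHT, were analysed, and the 4 input libraries were not used here. Per the submitters' processing notes, Bowtie2, bedtools and MACS2 were used on mm10. Tool versions and thresholds were not given in the sources used here, nor was any use of inputs in calling. Every deposited list holds the peaks of a single library with a score, the authors' own value with no stated scale, used only for ranks and filters within its list. No reads are counted in the lists, so depth and its precision are unknown.

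The 33 members and all gene lists were chosen with earlier results of these data known. Covered length per window was tested in R 4.3.3 with limma 3.58.1 (mean-dependent prior variance, two-sided) on log2(covered bp + 500), so changes of short lengths are understated. The fit was checked on simulated data with independent noise of equal size in every window and no clone difference. That check does not cover the clone difference or the sharing of peaks between windows. With 2 clones per treatment and no clone term, p-values weigh a change against how far apart the clones lie within a treatment. With the clone term, the steady clone difference is removed, and p-values weigh each effect against how unequal the change was in clones a and b. Both fits also draw on the prior variance. The labels give the clones under both treatments, and deviations of the same clone correlated at 0.611 over windows, so a fit with clone as a second term is given where it changes a call. Alternatives changed the window, pseudocount, filters, scaling, peak score and libraries. Values per library were to be named for members past a threshold, holding a gained or lost region, or among the 5 with the largest or smallest treatment change or largest clone difference. Gene intervals and promoter sequences are from RefSeq tables of GRCm38.p6, the assembly that mm10 follows in its coordinates. No genome sequence was used here, so the sequences of the changed regions are not printed, and 1 gene is not reported here.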

Additional observations from a re-analysis of the deposited data

Results flagged for a closer look

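At 3 of the 33 loci the covered length moved one way in clone a and the other way in clone b. The difference between the clones has no test of its own, since each clone has 1 library per treatment. At Hdac8 the log2 change was -0.12 in clone a and 0.63 in clone b, a difference of 0.75. At Hdac7 it was -0.07 and 0.36, a difference of 0.43. At Kat6b it was -0.07 and 0.03, a difference of 0.10.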

How the results depend on the processing

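Without a clone term, the number of member loci that rose (2) became 1 with lists of equal length, with no length filter and with the upper 50% of peaks by score, and 0 with windows of 10 or 100 kb, with the gene interval alone (an alternative added after seeing the data) and with any 1 library left out (0 to 0; between 3 and 8 members at an unadjusted p under 0.05, and 9 with all libraries). With the replicate block, the clone term, 12 rose and 3 fell, and with the block and scaling to covered length, also added after seeing the data, 15 rose and 3 fell. Of all windows, 642 rose and 461 fell. This became 3637 and 2485 with the block, 4062 and 2496 with block and scaling, 391 and 277 at 10 kb, 160 and 115 with the upper 50% by score, 129 and 101 with the gene alone, and between 0 and 405 and between 0 and 162 with 1 library left out (0 and 0 without treated clone a, where 3224 windows had an unadjusted p under 0.05, and 5 and 0 without untreated clone a). Members lower in clone b (5) became 10 at 100 kb and 0 with the upper 50% by score or the gene alone, and 1 was higher in clone b after scaling. The treatment change was the larger at 13 of 30 members tested at 10 kb, 9 of 26 with the gene alone, and between 17 and 21 with 1 library left out. Gained regions (36) became 14 with peaks merged within 1000 bp, 20 with the upper 50% by score, 11 at 10 kb and between 55 and 77 with 1 library left out, and lost regions (8) became 3 with the upper 50% by score, 2 at 10 kb, 15 at 100 kb and between 10 and 45 with 1 library left out.

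Of 484 values of single members under the alternatives, 412 kept direction and side of the threshold, and 27 changed sign, at 17 members. At 10 kb these were Hdac1 (-0.16), Smarca4 (-0.17), Sirt1 (-0.036), Smarcb1 (0.12), Kat7 (-0.12), Kat2a (0.40) and Kat6b (0.23). At 100 kb they were Crebbp (-0.050), Med14 (-0.22) and Hdac8 (-0.26). With the upper 50% by score they were Hdac1 (-0.011), Kat2a (0.20) and Hdac3 (-0.16). With the gene alone they were Cdk8 (-0.0046), Kat8 (-0.083), Smarca4 (-0.16) and Smarcc1 (-0.20). With 1 library left out, the range was -0.18 to 0.15 at Kat6b, -0.15 to 0.48 at Kat2b, -0.20 to 0.49 at Hdac7, -0.030 to 0.54 at Hdac8, -0.0080 to 0.099 at Hdac1, -0.0037 to 0.098 at Kat7 and -0.0014 to 0.27 at Med1. The cause was not tested. A fit with a clone term and 1 library left out has no residual degrees of freedom. Its treatment and clone terms were therefore compared only in size, and no test was run on them. Read depth is unknown, so regions near the calling limit cannot be told from absent ones.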
